A study of Mus musculus with 6 samples.

Results

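The 40 genes described here form a module of cell cycle and proliferation genes. The members were given by symbol and matched to the 6 single-cell count matrices, and all 40 were listed in every library, of 29781 genes listed in any of them. Together they took 340674 of 224922307 unique molecular identifiers (UMIs, 1 per captured RNA molecule) in the 47603 cells kept, or 0.1515% of all UMIs. The module was split by role into 13 S-phase genes, 24 mitosis genes and 3 genes (Stmn1, Hmgb2 and Tubb4b) that many cells also use outside the cycle. The tumours were grown in wild-type C57BL/6J mice given cells of the KPC line in the pancreas; KPC lines come from mouse pancreatic cancers. Each of 6 mice, allotted at random, received either an IgG control (3 mice) or #44-anti-mVSIG4, an antibody against mouse VSIG4, an immunoglobulin-family complement receptor of macrophages (3 mice, called anti-VSIG4 below), and tumours were taken 11 days after inoculation. Each library is 1 mouse, so the replicates are mice; the antibody dose and schedule, and the animals' age and sex, were not stated in the labels.

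A dividing cell first loads the MCM helicase onto its DNA, then copies the DNA in S phase with the help of the clamp PCNA and of enzymes that supply nucleotides, and then builds the spindle and separates its chromosomes in mitosis. Genes of the first step are largely driven by E2F factors, and those of the last step by complexes that bind CHR and CCAAT elements, so both groups are switched on and off as a cell passes through the cycle. In tumours the same genes mark division in cancer cells, in T cells that have met antigen, in dendritic cells and in macrophages that renew in the tissue, whereas mature neutrophils no longer divide.

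Promoters are printed for the 2 S-phase and 2 mitosis members with the most UMIs among those with an entry and a motif. The roles used below are fixed gene lists and were not drawn from promoter motifs. Pcna encodes the replication clamp, Pclaf a factor bound to that clamp, Ube2c the ubiquitin-conjugating enzyme of the anaphase-promoting complex, and Top2a the topoisomerase that untangles sister chromosomes. The sequences are from RefSeq (GRCm38.p6), 250 bases up to the annotated start, read 5′ to 3′ on the gene's strand; capitals mark CCAAT boxes (CCAAT, or ATTGG on the other strand) and CHR elements (TTTGAA or TTCGAA, or TTCAAA on the other strand). Pcna lies at chr2:132253181-132253430 (minus strand), Pclaf at chr9:65890073-65890322 (plus strand), Ube2c at chr2:164769679-164769928 (plus strand) and Top2a at chr11:99024190-99024439 (minus strand).
Pcna: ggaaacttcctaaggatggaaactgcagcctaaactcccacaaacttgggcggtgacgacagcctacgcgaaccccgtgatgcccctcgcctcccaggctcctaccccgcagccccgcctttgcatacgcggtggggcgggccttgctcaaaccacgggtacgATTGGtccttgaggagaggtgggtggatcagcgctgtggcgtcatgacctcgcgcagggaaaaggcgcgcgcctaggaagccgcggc
Pclaf: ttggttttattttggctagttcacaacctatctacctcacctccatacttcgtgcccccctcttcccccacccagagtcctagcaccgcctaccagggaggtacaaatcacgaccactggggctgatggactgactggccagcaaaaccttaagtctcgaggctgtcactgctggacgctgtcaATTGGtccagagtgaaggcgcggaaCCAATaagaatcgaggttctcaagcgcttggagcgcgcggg
Ube2c: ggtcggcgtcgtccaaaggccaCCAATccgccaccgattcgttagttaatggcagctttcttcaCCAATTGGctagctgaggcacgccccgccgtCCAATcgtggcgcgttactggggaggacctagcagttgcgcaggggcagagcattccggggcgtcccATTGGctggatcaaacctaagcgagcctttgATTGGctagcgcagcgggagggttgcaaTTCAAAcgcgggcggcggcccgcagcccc
Top2a: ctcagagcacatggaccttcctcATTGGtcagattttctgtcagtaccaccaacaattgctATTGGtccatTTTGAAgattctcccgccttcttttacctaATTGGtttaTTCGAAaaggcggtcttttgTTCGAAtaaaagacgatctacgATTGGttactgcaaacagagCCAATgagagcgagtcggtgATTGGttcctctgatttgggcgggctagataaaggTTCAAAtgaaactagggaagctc
The Pcna window held 1 CCAAT box and the Pclaf window 2, with no CHR element in either. The Ube2c window held 6 CCAAT boxes, of which 2 on opposite strands overlap, and 1 CHR element, and the Top2a window held 6 CCAAT boxes and 4 CHR elements. Of 35 members with an entry, a CCAAT box was found in 9 of 12 S-phase members (75.0%) and 19 of 21 mitosis members (90.5%), against 34.5% of 27025 genes. A CHR element was found in 2 of 12 S-phase members (16.7%) and 8 of 21 mitosis members (38.1%), against 17.4% of all genes. E2F motifs were searched on both strands as TTCCCGC, with TTCGCGC, also TTGCCGC and lastly TTGGCGC, and were found in 6 of 12 S-phase members (50.0%) and 3 of 21 mitosis members (14.3%), against 8.0% of all genes. None of the printed windows held an E2F motif. The motif counts are matches of letters in a window, not sites shown to be bound.

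Library totals ranged from 26606234 to 47221033 UMIs, and the median kept cell had 2127 to 2703 UMIs by library. Cells were clustered without the members or 105 other cell cycle genes and named from markers, so each class name below means cells like that type. Keratins marked the tumour/epithelial class, with Krt8 at 6237 UMIs per 1000000 (CPM) against 93.5 in all other cells, and Cd3d marked T cells at 1023 against 41.1 CPM. In the monocyte/macrophage class C1qa stood at 5896 against 306 CPM, whereas the monocyte gene Ly6c2, at 163 against 165 CPM, did not mark it. Among markers of type 2 conventional dendritic cells, Mgl2 stood at 914 against 94.2 CPM, but Zbtb46 at only 14.3 against 7.69 CPM. Type 1 markers scored second in that cluster (1.29 against 2.55). No cluster was named type 1, and whether this class holds such cells was not tested. A further 5601 cells, called nucleus-like here, had a high share of reads from genes over 100 kb long, and they made up 40.6% of IgG 3, 15.5% of IgG 2, 5.14% of anti-VSIG4 3 and 0.37% to 0.59% of the other libraries. IgG 3 therefore stands apart, and the main T cell results for the members are given with and without it.

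Cells with RNA of the proliferation marker Mki67 or of Top2a made up a larger share of T cells and tumour cells than of macrophages or neutrophils. Every cell was first thinned to 1000 UMIs, since deeper cells show more genes. In T cells the share was 5.98%, 7.14% and 10.1% in the 3 IgG libraries and 6.57%, 5.16% and 6.36% in the 3 anti-VSIG4 libraries. Tumour/epithelial cells gave 7.45%, 6.96% and 7.57% under IgG and 6.57%, 7.56% and 4.82% under anti-VSIG4. In both classes the treatment groups overlapped, and every library lay above every neutrophil library, which ranged from 1.29% to 2.46%. Neutrophils were the gauge of free RNA, because mature neutrophils should lack these transcripts, but their cells were also shallower, with a median of 1582 UMIs against 3024 in T cells before thinning.

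Type 2 conventional dendritic cells (cDC2), which present antigen to helper T cells, gave 3.91%, 8.18% and 7.87% under IgG and 3.72%, 4.13% and 5.03% under anti-VSIG4. With 110 to 296 of these cells in a library the exact (Clopper-Pearson) 95% intervals were wide, for example 3.81% to 14.96% in IgG 2, and they cover counting error only. Monocyte/macrophages gave 2.81%, 4.01% and 2.73% under IgG and 3.28%, 4.43% and 3.69% under anti-VSIG4, so their lowest library lay just above the highest neutrophil library. Without thinning, shares averaged 17.7% in T cells, 27.7% in tumour/epithelial cells, 18.9% in cDC2, 13.5% in monocyte/macrophages and 3.39% in neutrophils. Before thinning, tumour/epithelial cells stood above T cells, and they were also deeper, with a median of 6282 UMIs.

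Means per treatment in the 4 main classes were as follows, and the groups overlapped in each at 1000 UMIs. The T cell share averaged 7.75% ± 2.13 under IgG and 6.03% ± 0.758 under anti-VSIG4 (SD, n = 3 each), a difference of -1.72 points that shrank to -0.54 without IgG 3. The tumour/epithelial share averaged 7.33% ± 0.324 and 6.32% ± 1.39, the monocyte/macrophage share 3.19% ± 0.716 and 3.80% ± 0.583, and the cDC2 share 6.66% ± 2.38 and 4.29% ± 0.669. Without thinning the tumour/epithelial groups did not overlap, at 27.6%, 36.0% and 31.5% under IgG and 22.8%, 22.4% and 25.9% under anti-VSIG4, with median depths of 4691, 12966 and 7945.5 UMIs and of 3753, 4702 and 5820.5 UMIs. The cDC2 difference turned from -2.37 points to 1.24 when cells were thinned to 2000 UMIs and to 5.40 without thinning, so its direction depended on how depth was handled. Fibroblasts did not overlap, with 6.25%, 7.04% and 6.14% under IgG and 4.65%, 3.83% and 5.56% under anti-VSIG4, nor under the stricter count described next (3.37%, 2.11% and 2.63% against 1.16%, 1.09% and 1.85%), but the groups overlapped once cells were thinned to 2000 UMIs or not thinned. Migratory dendritic cells did not overlap either, with 1.72%, 3.23% and 5.0% under IgG and 0.901%, 0% and 0% under anti-VSIG4 from 50 to 157 cells a library, and they overlapped under the other 3 counts. No p-value is given for these shares; with 3 libraries against 3, an exact 2-sided permutation test cannot go below 0.1.

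**Figure D1:**
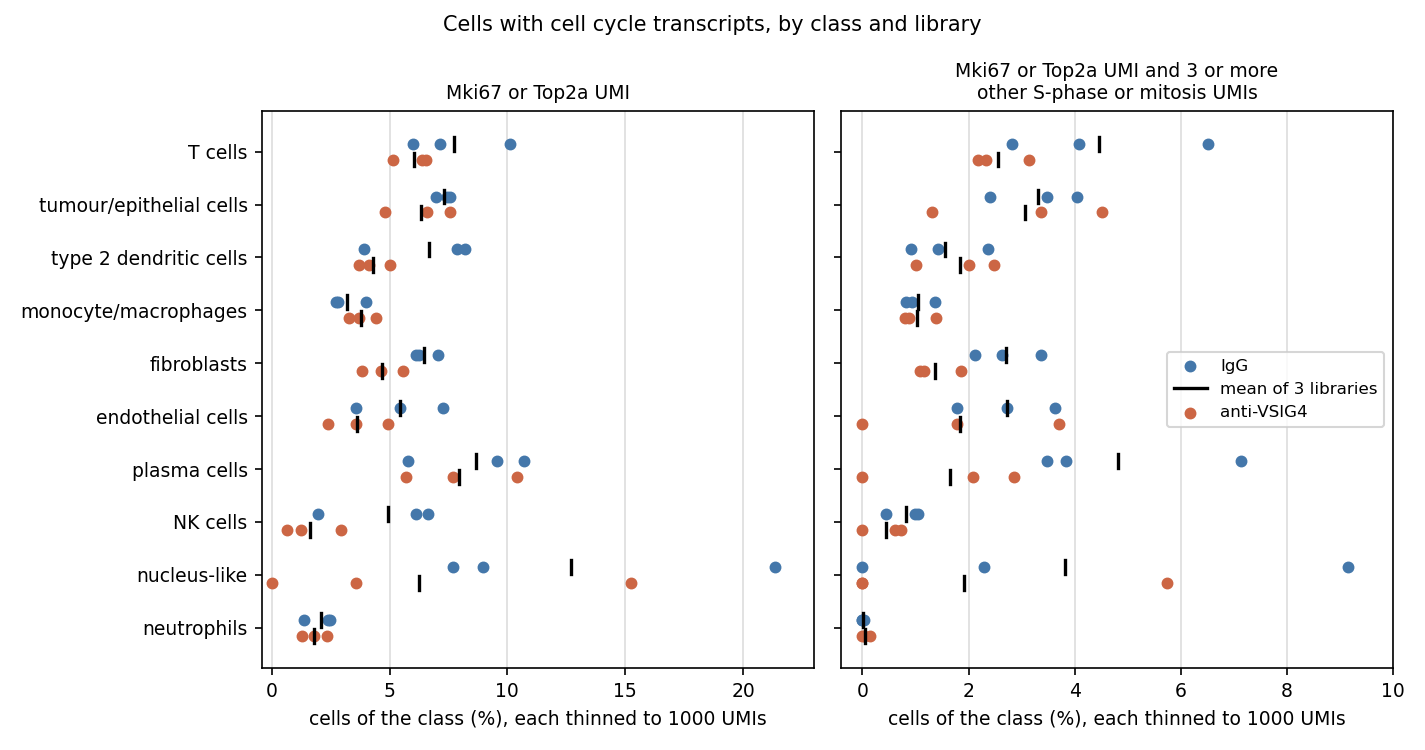
Share of cells (%) with a Mki67 or Top2a UMI (left) and with 3 or more further S-phase or mitosis UMIs as well (right), by class, each cell thinned to 1000 UMIs; points are libraries and bars the mean of 3. T cells and tumour/epithelial cells lie at 4.82% to 10.1% on the left, and neutrophils at 1.29% to 2.46%.

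A stricter count removed nearly all neutrophils. Of the 2554 cells with a Mki67 or Top2a UMI, 896 also had at least 3 UMIs of the other 35 S-phase and mitosis members. Only 6 of 15098 neutrophils passed, compared with 199 of 6109 T cells, 85 of 2657 tumour/epithelial cells, 120 of 11391 monocyte/macrophages and 21 of 1255 cDC2. T cells were 12.8% of all cells and 22.2% of the strict ones, and monocyte/macrophages 23.9% and 13.4%. Most neutrophils with a Mki67 or Top2a UMI, 250 of 303, had none of the other 35 members, whereas 96 of 400 such T cells had 6 or more. Cells near the limit were common, with 41 T cells at 2 further UMIs, just outside, and 26 at 3, just inside.

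The strict share of T cells was 2.81%, 4.08% and 6.51% under IgG and 3.15%, 2.33% and 2.17% under anti-VSIG4. IgG 3 was the highest library, and the groups overlapped. In tumour/epithelial cells it was 4.04%, 3.48% and 2.40% under IgG and 4.52%, 3.36% and 1.32% under anti-VSIG4, in monocyte/macrophages 0.798% to 1.38% over the 6 libraries, and in cDC2 0.909% to 2.48%. Strict T cells were deeper than other T cells before thinning, with a median of 7369 against 2958 UMIs. The same held in cDC2 (12034 against 6519.5) and monocyte/macrophages (6434 against 4465), but tumour/epithelial cells showed the opposite order (5130 against 6290). Library by library the tumour/epithelial order was mixed, with strict cells shallower in 4 libraries and deeper in anti-VSIG4 2 (12226.5 against 4567) and anti-VSIG4 3 (6123 against 5743). Dividing cells hold more RNA, and doublets also hold more UMIs, and these cannot be told apart by depth. Among the 6% of cells with the highest doublet scores were 3.02% of strict and 9.54% of other T cells, but 9.52% of the 21 strict and 5.92% of other cDC2.

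The largest single source of strict cells was the nucleus-like group, with 403 of 896 (45.0%). Of these, 387 lay in 1 cluster of 3533 cells led by the T cell genes Camk4 and Themis, and 345 of the 387 came from IgG 3. In that cluster a Mki67 or Top2a UMI was found in 26.2% of 2846 cells of IgG 3, 15.2% of 534 cells of IgG 2 and 26.1% of 138 cells of anti-VSIG4 3. The other libraries held only 3 to 8 cells each of this cluster, so no treatment comparison can be made in it. IgG 3 thus gave the highest T cell share both in intact T cells and by number in this cluster. The part that the nucleus-like cells play in the T cell values of IgG 3 was not tested.

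Other members followed the strict rule to differing degrees. In strict against other T cells, the chromatin protein gene Hmgb2 was detected in 92.5% against 42.7%, the tubulin-binding Stmn1 in 57.3% against 6.58%, Pclaf in 42.2% against 2.74% and Ube2c in 42.2% against 3.87%. Hmgb2 was therefore common outside the strict cells, while the other three were rare there. Pcna was detected in 25.6% of strict and 7.73% of other T cells, and in 5.33% of neutrophils that were not strict. All of these are descriptions, since S-phase and mitosis members were counted by the rule; Hmgb2 and Stmn1 were not.

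S-phase and mitosis genes were set against each other as summed levels in CPM of a class. UMIs count molecules and were not scaled by gene length, and the lists hold 13 and 24 genes, so the ratio is read only between classes and libraries. T cells had S-phase sums of 788, 570 and 1040 CPM under IgG and 817, 592 and 691 CPM under anti-VSIG4. Their mitosis sums were 797, 826 and 1422 CPM under IgG and 870, 870 and 662 CPM under anti-VSIG4. IgG 3 was the highest library on both, and the other 5 did not separate by treatment. Tumour/epithelial cells had 393 to 661 CPM of S-phase and 448 to 941 CPM of mitosis members, with anti-VSIG4 3 lowest on both.

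In cDC2 the S-phase sum did not overlap between treatments, at 306, 303 and 311 CPM under IgG and 431, 420 and 450 CPM under anti-VSIG4. The libraries within a treatment were close, with means of 307 ± 3.88 and 434 ± 15.4 CPM (SD, n = 3). The IgG sums rest on 539, 285 and 325 UMIs, which carry counting error of their own. An SD from 3 libraries is also imprecise, so the small IgG SD is no measure of how much mice vary. Their mitosis sums, 428, 283 and 260 CPM under IgG and 417, 492 and 581 CPM under anti-VSIG4, overlapped through IgG 1. In monocyte/macrophages the mitosis sum did not overlap, at 253, 246 and 239 CPM under IgG and 288, 369 and 257 CPM under anti-VSIG4, but the closest libraries differed by only a few CPM. Their S-phase sums of 183 to 339 CPM overlapped. In neutrophils both sums lay between 91.2 and 138 CPM.

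Mitosis per S-phase UMI averaged 2.10 in fibroblasts, 1.40 in tumour/epithelial cells, 1.22 in T cells, 1.11 in monocyte/macrophages, 1.10 in cDC2 and 0.950 in neutrophils. Fibroblasts ranged from 1.43 to 3.27 and T cells from 0.958 to 1.47 by library, so they overlapped only slightly, and tumour/epithelial cells (1.14 to 1.65) and T cells overlapped widely. Single strict cells gave more mitosis than S-phase UMIs in 77.6% of tumour/epithelial, 79.2% of monocyte/macrophage, 67.3% of T cell and 66.7% of cDC2 cases. The opposite was seen in 23.6% of strict T cells and 11.8% of strict tumour/epithelial cells. Because the rule starts from Mki67 and Top2a, which peak after S phase, it favours cells late in the cycle.

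**Figure D2:**
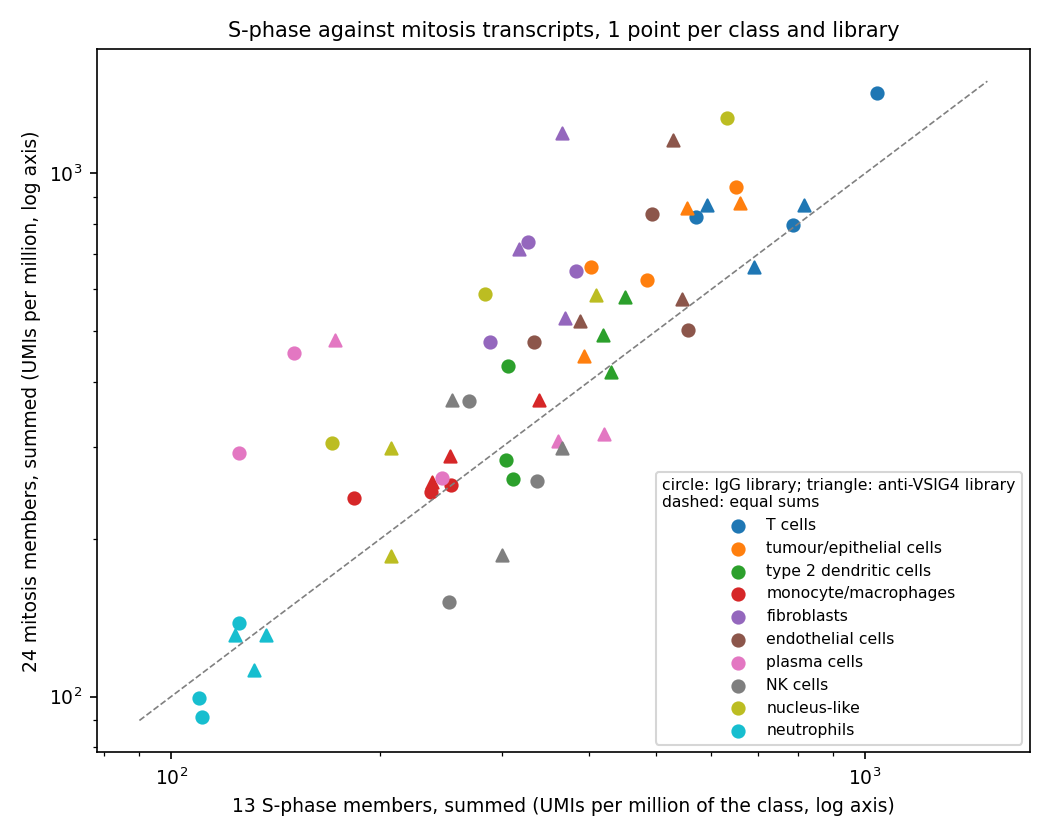
Summed level of the 13 S-phase members (x axis) against that of the 24 mitosis members (y axis), in CPM of the class on log axes, 1 point per class and library; circles are IgG, triangles anti-VSIG4 and the dashed line equal sums. The 10 classes shown are those of the plot of shares by class; neutrophils sit lowest among them, at 91.2 to 138 CPM, T cells of IgG 3 highest among the T cells (1040 and 1422 CPM), and fibroblasts lie well above the line.

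Levels were then compared between classes of the same mice, with edgeR on UMIs summed per library and class and the library as a block. The members did not enter the clustering directly, but leaving out the cell cycle lists removed only 7 variable genes and left 2993. Genes that correlated with the cycle were removed only before sub-clustering, so an indirect part of the cycle in the classes was not tested. T cells were higher than monocyte/macrophages for 39 of 40 members and lower for none, with a median log2 difference of 1.49; of all 12158 genes tested 69.1% passed in either direction and 33.9% were higher in T cells, with a median of -0.01. All 13 S-phase and 23 of 24 mitosis members passed. Hells, a chromatin remodeller of replicating cells, averaged 32.5 ± 13.8 against 6.54 ± 0.801 CPM (SD, n = 6), a log2 difference of 2.00 ± 0.19 (SE; edgeR adjusted p = 6.7e-07). Ccna2, the cyclin of S phase and early mitosis, averaged 23.5 ± 8.16 against 5.27 ± 1.63 CPM, and Pclaf 114 ± 30.8 against 26.4 ± 9.69 CPM, with log2 differences of 1.91 each. Each of the 3 was higher in T cells in 6 of 6 libraries. The spindle kinase gene Aurka was the exception, at 6.11 ± 2.12 against 4.99 ± 0.772 CPM (log2 difference 0.06 ± 0.20, edgeR adjusted p = 0.79).

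T cells and tumour/epithelial cells differed gene by gene. Levels in CPM are shares of the UMIs of a class, not molecules per cell. Tumour/epithelial cells were deeper, with a median of 6282 against 3024 UMIs per cell, and the part of depth was not tested. Of 40 members, 21 were higher in T cells, 3 were lower and 16 did not pass, against 36.6% higher and 36.2% lower among 11697 genes (72.8% in either direction). Hmgb2 averaged 1223 ± 246 CPM in T cells and 360 ± 112 CPM in tumour/epithelial cells, a log2 difference of 1.93 ± 0.19 (edgeR adjusted p = 7.6e-06). Mki67 averaged 52.9 ± 10.5 and 19.9 ± 3.56 CPM (1.53 ± 0.12), and Pclaf 114 ± 30.8 and 44.3 ± 21.4 CPM (1.57 ± 0.23), higher in T cells in 6 of 6 libraries. Of the 13 S-phase members, 9 were higher in T cells and none lower, including Pcna at 121 ± 25.4 against 67.2 ± 11.3 CPM. Of the 24 mitosis members, 10 were higher in T cells and 3 lower, and the 3 that were lower act at the spindle or at mitotic exit.

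Kif23, a motor of the central spindle needed to split the cell, averaged 18.5 ± 4.07 CPM in T cells and 41.9 ± 5.36 CPM in tumour/epithelial cells, a log2 difference of -1.06 ± 0.14 (edgeR adjusted p = 1.1e-05). Aurka averaged 6.11 ± 2.12 and 13.9 ± 4.90 CPM (-1.06 ± 0.15), and Cdc20, the activator of the anaphase-promoting complex, 16.8 ± 5.06 and 28.1 ± 11.5 CPM (-0.57 ± 0.17, edgeR adjusted p = 0.0077). All 3 were lower in T cells in 6 of 6 libraries, but Cdc20 did not pass without the library as a block (edgeR adjusted p = 0.067). Ube2c, which works with that complex, did not pass, at 129 ± 57.1 and 137 ± 34.3 CPM (log2 difference -0.02 ± 0.21). Tumour/epithelial cells thus had higher Kif23 and Aurka together with lower Mki67 and Top2a (65.5 ± 15.8 against 114 ± 19.1 CPM) than T cells of the same tumours.

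cDC2 were higher than monocyte/macrophages for 31 of 40 members and lower for none, with a median log2 difference of 0.79; of 11042 genes 22.6% were higher in cDC2 and 45.0% passed in either direction, with a median of -0.01. Mcm4, a subunit of the replicative helicase, averaged 39.0 ± 7.51 against 18.8 ± 4.22 CPM (1.18 ± 0.12, edgeR adjusted p = 4.6e-09). Ube2c averaged 57.6 ± 26.7 against 28.6 ± 8.07 CPM (1.12 ± 0.12), and Cdca3, which triggers entry to mitosis, 25.1 ± 8.70 against 13.4 ± 3.49 CPM (1.09 ± 0.17). These 3 were higher in cDC2 in 6 of 6 libraries. Mki67 did not pass, at 20.4 ± 10.3 against 20.2 ± 5.15 CPM (log2 difference 0.19 ± 0.20, edgeR adjusted p = 0.47), nor did Bub1b, a spindle checkpoint kinase (0.11 ± 0.22). cDC2 were also deeper, with a median of 6561 against 4473 UMIs per cell, and its part in these differences was not tested.

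**Figure D3:**
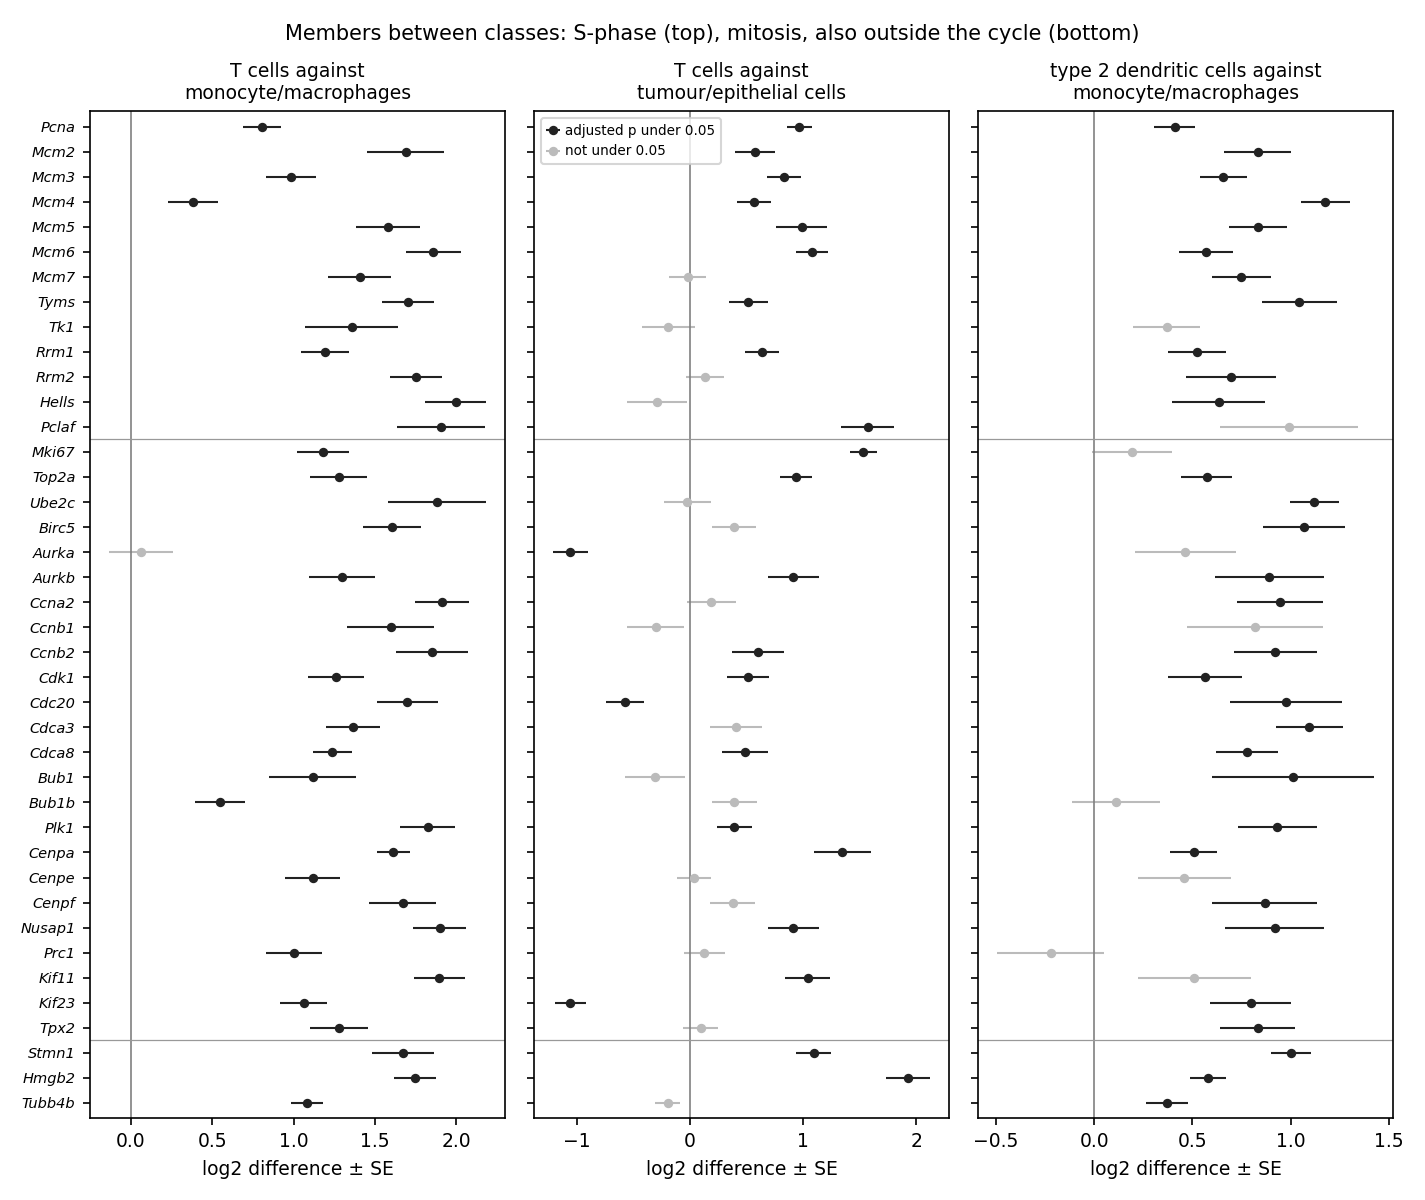
Log2 difference ± SE (x axis, edgeR) of each of the 40 members between 2 classes of the same 6 libraries, S-phase members at the top, mitosis members in the middle and the 3 others at the bottom; black points passed at an adjusted p of 0.05. Black points lie right of 0 for 39 of 40 members in T cells against monocyte/macrophages, while Aurka, Cdc20 and Kif23 lie left of 0 against tumour/epithelial cells.

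Within T and NK cells, the mitosis sum over pooled libraries was highest in 3 sub-clusters, which were built without the cell cycle genes. A sub-cluster led by the granzyme genes Gzmc and Gzmf and the cytokine genes Ccl1 and Csf2 held 13.2% of the 7606 T and NK cells and 83 of their 210 strict cells (39.5%). Its mitosis sum was 1173 to 1939 CPM, and its top genes match no marker list, so it has no name. Regulatory T-like cells (Foxp3) had 881 to 2080 CPM and CD8 T-like cells (Gzmk, Itga1, Cxcr6) 649 to 1458 CPM. By contrast, a larger sub-cluster led by Cd8a, Cd8b1 and Ly6c2 had 234 to 589 CPM, and cells led by Il17a and Trdc had 208 to 629 CPM. Top2a in the Gzmc sub-cluster was 160, 193 and 183 CPM under IgG and 174, 189 and 220 CPM under anti-VSIG4. In the Cd8a and Ly6c2 sub-cluster Top2a was 61.2, 63.2 and 60.0 CPM under IgG and 57.9, 42.2 and 22.1 CPM under anti-VSIG4. Top2a is a single gene. The mitosis sum of the Cd8a and Ly6c2 sub-cluster averaged 444 CPM under IgG and 451 CPM under anti-VSIG4, with overlap. Its S-phase sum averaged 428 and 377 CPM, also with overlap. The Top2a values therefore do not show that cycling as a whole fell in that sub-cluster. The rankings of sub-clusters are descriptions with no test.

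Among monocyte/macrophages, resident-type macrophage-like cells led by Ccl8, Folr2 and Fcna held more strict cells than any other sub-cluster. They were 11.3% of the class and 43 of its 120 strict cells (35.8%), with a mitosis sum of 392 to 943 CPM. Another sub-cluster also named resident-type, led by Saa3, Marco and Ltc4s, held only 6 strict cells among 697, with 161 to 476 CPM. Classical monocyte-like cells (Ly6c2, Chil3) had 92.9 to 262 CPM. None of their 917 cells, pooled over 6 mice, passed the strict rule at 1000 UMIs, which allows up to 0.327% to pass it by counting error alone. Macrophage-like cells led by Saa3 and Nos2 had 78.4 to 157 CPM, and those led by Pf4 and Ms4a7 122 to 315 CPM. Top2a in the Ccl8 and Folr2 sub-cluster was 80.9, 83.7 and 126 CPM under IgG and 115, 177 and 62.8 CPM under anti-VSIG4, against 2.99 to 36.7 CPM in classical monocyte-like cells. The Ccl8 and Folr2 sub-cluster made up 7.75% to 13.7% of the class under IgG and 8.70% to 12.7% under anti-VSIG4.

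**Figure D4:**
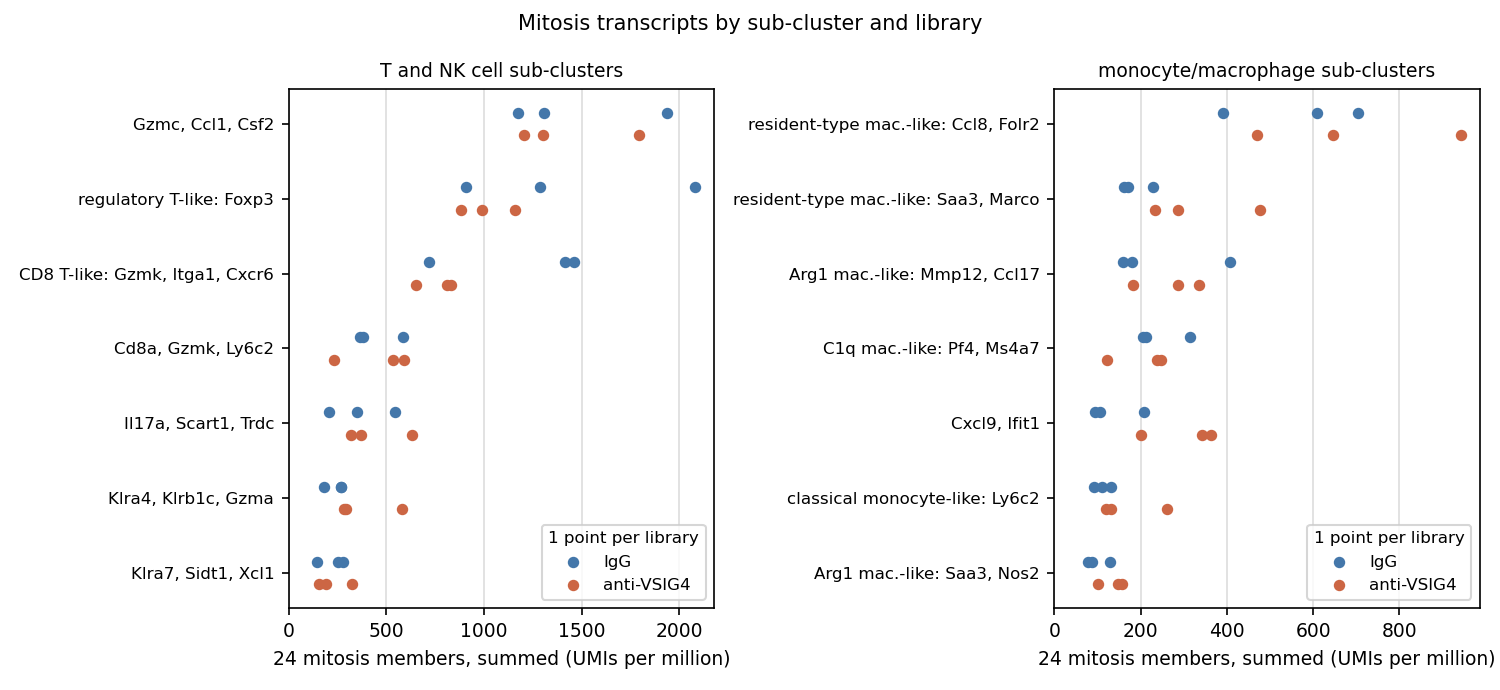
Summed level of the 24 mitosis members (x axis, CPM of the sub-cluster) in sub-clusters of T and NK cells (left) and of monocyte/macrophages (right), named by leading genes; each point is 1 library. The Gzmc and Foxp3 sub-clusters on the left reach 1939 and 2080 CPM, and the Ccl8 and Folr2 sub-cluster on the right reaches 943 CPM.

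Treatment was compared within each class by edgeR on summed UMIs, with adjustment over all genes tested. No member passed at an adjusted p of 0.05 in T cells, tumour/epithelial cells, monocyte/macrophages or cDC2, and 0% of all genes passed in each of the 4 classes (0 of 10842, 12009, 13039 and 8290). At an unadjusted p under 0.05 there were 1, 0, 6 and 10 members, of 40, 40, 40 and 36 tested, and 388, 470, 545 and 321 genes in all. DESeq2 also called 0 members, where it called 4 genes (0.0290%), 7 (0.0584%), 23 (0.125%) and 1 (0.00520%). In simulated T cell data with these library sizes (10616 genes) edgeR recovered 42.2% of 2-fold and 95.2% of 4-fold changes. In simulated monocyte/macrophage data (12786 genes) it recovered 41.9% and 88.3%, and in simulated tumour/epithelial data (11762 genes) 15.2% and 90.2%, so 2-fold and smaller changes could be missed. The simulated data held many changed genes at once, in T cells 90 changed 2-fold and 105 changed 4-fold. Many changes make the adjusted threshold easier to reach, and 0 genes passed in the real fits. The rates can therefore overstate the power for a lone member, and cDC2 were not simulated.

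In T cells 37 of 40 members had a fitted value below 0, with a median log2 change of -0.26 against 0.00 over all genes. Members are switched on in the same cycling cells and can move together by library. Counts of members, here and in the other classes, are therefore not counts of independent results. Mki67 was 50.3, 50.9 and 73.5 CPM under IgG and 50.3, 42.8 and 49.9 CPM under anti-VSIG4, a log2 change of -0.27 ± 0.20 (SE). Top2a was 117, 114 and 139 CPM under IgG and 118, 79.3 and 114 CPM under anti-VSIG4 (-0.23 ± 0.20). For both genes IgG 3 was the highest library and the groups overlapped. Prc1, which bundles the central spindle, was the 1 member whose groups did not overlap, at 15.5, 15.3 and 25.7 CPM under IgG and 11.4, 14.4 and 9.70 CPM under anti-VSIG4 (-0.65 ± 0.27, edgeR adjusted p = 1.00); 4.24% of all genes were lower without overlap. Hells was 35.6, 26.2 and 56.8 CPM under IgG and 21.4, 18.9 and 36.0 CPM under anti-VSIG4 (-0.63 ± 0.33).

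Among other T cell members with the smallest p, the helicase subunit genes Mcm6 (-0.24 ± 0.21) and Mcm7 (-0.22 ± 0.19) and the mitotic kinase genes Bub1 (-0.60 ± 0.36) and Plk1 (-0.33 ± 0.21) all overlapped between groups. The count of members above 0 moved from 3 to 19 of 40 without IgG 3, and the median to -0.02. In the 3 libraries with under 1% nucleus-like cells it was 18 of 40 (median -0.01). Within the other 3 libraries it was 4 of 40 (median -0.50). Macrophage markers in the T cell class also separated the treatments, with all 10 detected and a summed level of 789 to 1378 CPM under IgG and 1665 to 2270 CPM under anti-VSIG4, and their part in these values was not tested.

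In tumour/epithelial cells 23 of 40 members lay above 0 and 17 below, with a median log2 change of 0.06 against -0.01 over all genes. Of S-phase members 11 of 13 lay above 0, and of mitosis members 10 of 24. Mki67 was 20.4, 19.3 and 23.5 CPM under IgG and 24.1, 17.5 and 14.8 CPM under anti-VSIG4 (-0.14 ± 0.22), and Top2a 86.7, 82.1 and 52.4 CPM under IgG and 66.0, 57.0 and 49.0 CPM under anti-VSIG4 (-0.35 ± 0.24). Both overlapped. Pcna was 64.0, 59.2 and 61.4 CPM under IgG and 89.2, 68.7 and 60.7 CPM under anti-VSIG4 (0.27 ± 0.18), and the mitotic cyclin gene Ccnb1 13.2, 6.12 and 9.77 CPM and 19.8, 16.7 and 7.93 CPM (0.68 ± 0.39).

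The thymidine kinase gene Tk1, which salvages thymidine for DNA synthesis, was 57.1, 61.3 and 59.2 CPM under IgG and 56.8, 50.2 and 47.6 CPM under anti-VSIG4 (-0.18 ± 0.16). Kif23 was 49.5, 39.5 and 47.9 CPM under IgG and 38.8, 38.7 and 36.9 CPM under anti-VSIG4 (-0.23 ± 0.17). These were the 2 members without overlap, both lower, where 4.82% of all genes were lower without overlap. Tyms, which makes thymidylate, overlapped (0.27 ± 0.26). With library kind as a covariate 5 of 40 members lay above 0 (median -0.26), so the balance of directions in this class turned with library kind.

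In monocyte/macrophages 37 of 40 members lay above 0, with a median log2 change of 0.30 against 0.00 over all genes. Ube2c was 26.3, 21.1 and 19.9 CPM under IgG and 32.4, 41.7 and 30.1 CPM under anti-VSIG4, a log2 change of 0.61 ± 0.17 (SE; edgeR adjusted p = 0.999). Its groups did not overlap, nor did those of Birc5, an inhibitor of apoptosis in the chromosomal passenger complex (18.7, 20.4 and 17.1 against 24.3, 31.9 and 21.1 CPM; 0.43 ± 0.18). Aurkb, the kinase of that complex, was 3.05, 2.12 and 2.79 CPM under IgG and 4.20, 6.09 and 4.39 CPM under anti-VSIG4 (0.87 ± 0.27), and Plk1 4.92, 6.53 and 7.35 CPM and 9.06, 10.9 and 8.44 CPM (0.56 ± 0.23). These 4 of 40 members were higher without overlap, against 4.10% of all genes. In neutrophils, the gauge of free RNA, Ube2c was also higher without overlap, at 10.9, 9.45 and 11.5 CPM under IgG and 14.04, 16.8 and 18.6 CPM under anti-VSIG4. The neutrophil class includes a cluster of 46 cells with granule genes that held all 6 strict neutrophils, so it is not a pure gauge. Neither the part of free RNA nor that of this cluster was tested.

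Mki67 in monocyte/macrophages was 15.04, 25.9 and 16.0 CPM under IgG and 17.9, 27.2 and 19.2 CPM under anti-VSIG4 (0.13 ± 0.27), and Top2a 40.7, 38.8 and 33.4 CPM and 38.4, 59.7 and 33.1 CPM (0.18 ± 0.21). Both genes overlapped fully, and anti-VSIG4 2 was the highest library for each. The helicase subunit genes Mcm4 (0.44 ± 0.19), Mcm5 (0.57 ± 0.24) and Mcm2 (0.47 ± 0.22) had the smallest S-phase p-values and also overlapped. The number of members above 0 stayed between 30 and 40 over the alternatives. The 6 erythroid markers in this class summed to 5.70 to 70.0 CPM under IgG and 207 to 643 CPM under anti-VSIG4 without overlap. A sub-cluster of 27 cells led by the globin genes Hba-a1 and Hbb-bs held 3 strict cells. Its pooled mitosis sum of 1362 CPM was the highest of the sub-clusters of the class. It made up 0% to 0.044% of the class under IgG and 0.084% to 1.21% under anti-VSIG4. The part of these markers and cells in the values was not tested.

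In cDC2 34 of the 36 members tested lay above 0, with a median log2 change of 0.56 against -0.01 over all genes; Aurka, Ccnb1, Bub1 and Prc1 were too low to test. Pclaf was 44.2, 19.2 and 12.4 CPM under IgG and 59.7, 54.8 and 92.7 CPM under anti-VSIG4, a log2 change of 1.40 ± 0.39 (SE; edgeR adjusted p = 0.999). Tyms was 17.6, 8.51 and 19.1 CPM under IgG and 30.04, 22.9 and 35.1 CPM under anti-VSIG4 (0.96 ± 0.31). All 3 anti-VSIG4 libraries lay above all 3 IgG libraries for both. In neutrophils Pclaf was lower but ordered alike, at 4.55, 1.30 and 2.44 CPM under IgG and 8.48, 7.19 and 4.58 CPM under anti-VSIG4. These neutrophil values include the granule gene cluster, and its part was not tested. Ccnb2, a mitotic cyclin gene, was 11.3, 2.13 and 8.61 CPM and 15.2, 17.9 and 14.5 CPM (1.02 ± 0.42), and the spindle assembly gene Tpx2 9.64, 7.45 and 10.5 CPM and 14.1, 15.1 and 21.8 CPM (0.89 ± 0.35).

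In all, 9 of 36 cDC2 members were higher without overlap (Mcm4, Tyms, Pclaf, Ccnb2, Nusap1, Kif23, Tpx2, Stmn1 and Tubb4b), against 3.68% of all genes, and none was lower without overlap. Stmn1 was 95.8, 84.1 and 63.1 CPM under IgG and 105, 142 and 138 CPM under anti-VSIG4 (0.66 ± 0.22), and Tubb4b, a tubulin of the spindle, 60.1, 44.7 and 48.8 CPM and 71.9, 100 and 81.8 CPM (0.72 ± 0.22). The Kif23 and Nusap1 levels were low, at 2.13 to 14.5 CPM. Mki67 (0.70 ± 0.41), Top2a (0.33 ± 0.26), Pcna (0.47 ± 0.23) and Ube2c (0.89 ± 0.31) overlapped. NK cell markers in this class also separated the groups, at 7.45 to 24.9 CPM under IgG and 27.8 to 101 CPM under anti-VSIG4, and their part was not tested. The share of cDC2 with a Mki67 or Top2a UMI overlapped between treatments at 1000 UMIs, at 2000 UMIs and without thinning.

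**Figure D5:**
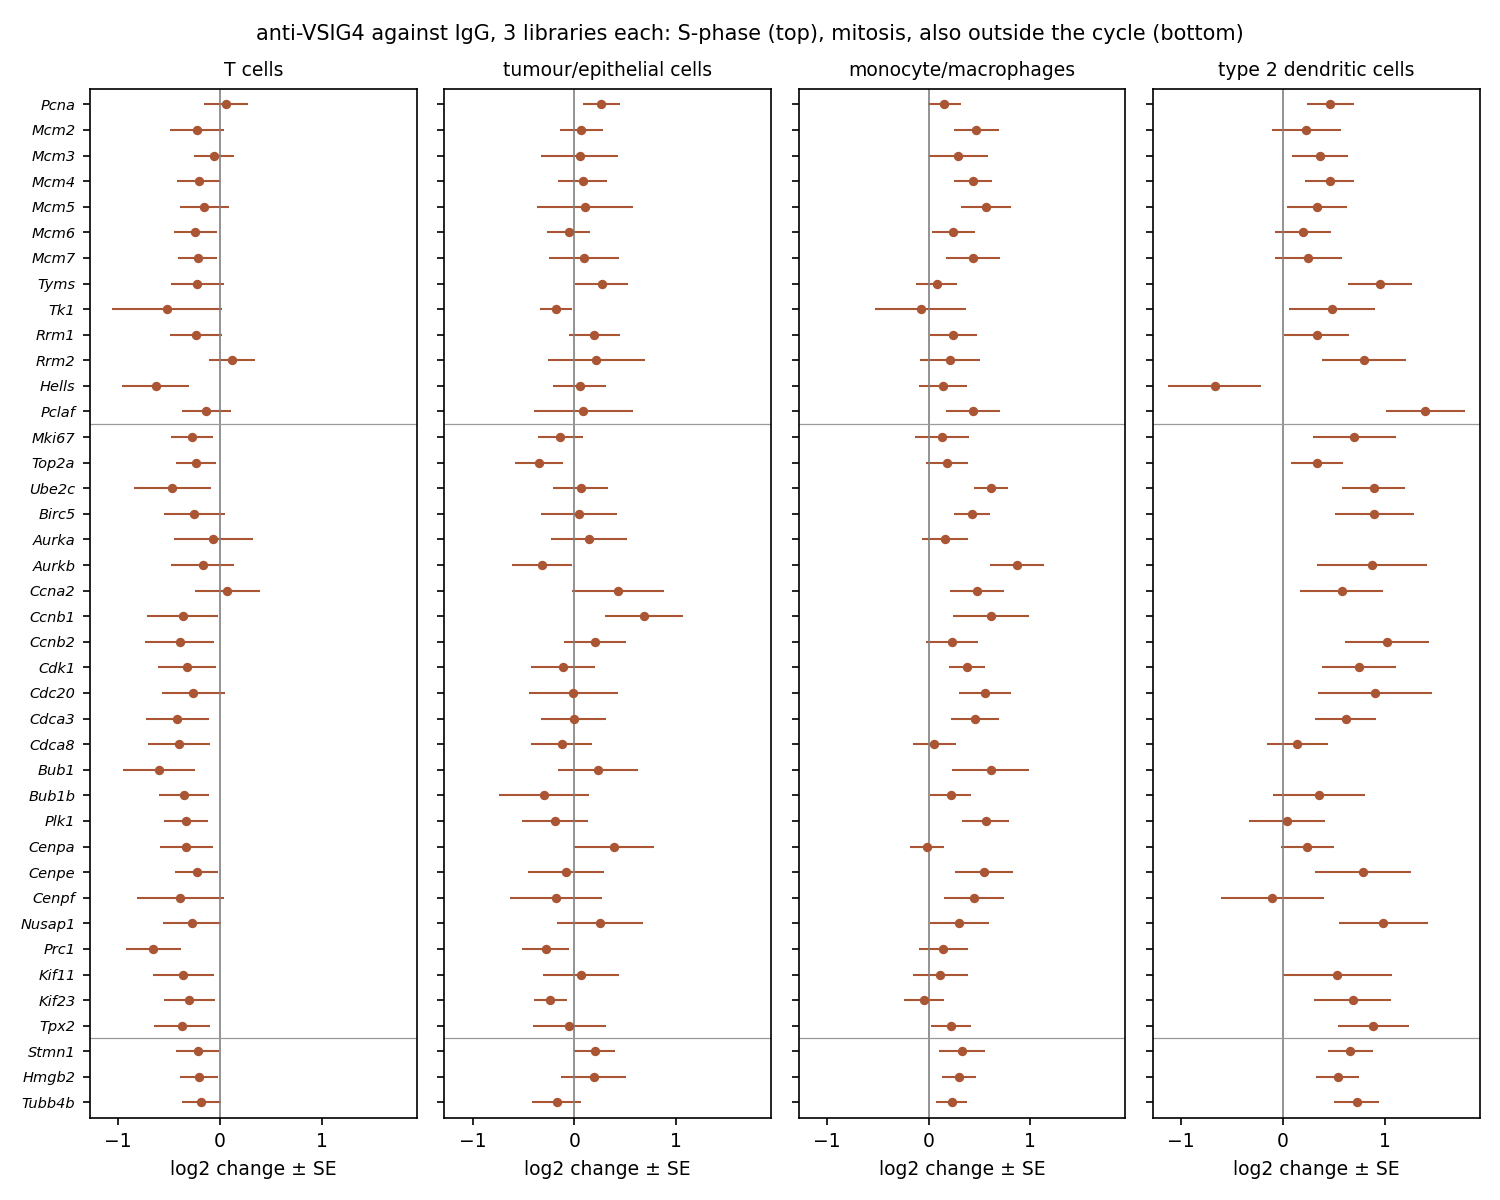
Log2 change ± SE (x axis, edgeR, anti-VSIG4 against IgG, 3 libraries each) of the members tested in 4 classes, S-phase members at the top, mitosis members in the middle and the 3 others at the bottom. No member passed at an adjusted p of 0.05; 37 of 40 lie left of 0 in T cells, 37 of 40 right of 0 in monocyte/macrophages and 34 of 36 right of 0 in cDC2.

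Whether the treatment change itself differed between classes was tested with an interaction term in edgeR. Between T cells and monocyte/macrophages 0 of 40 members passed after adjustment, where 0 of 12158 genes passed, while all 40 differences were below 0, with a median of -0.55. At an unadjusted p under 0.05 there were 16 of 40 members, against 5.98% of all genes, and Plk1 had the smallest p (-0.94, edgeR adjusted p = 0.36). The members are not independent of each other, so the share of all genes is a description beside this count and not a test of it. Without IgG 3 the 16 became 2 and the median -0.24, and without the other libraries in turn they became 6 to 23. Between T cells and tumour/epithelial cells 0 of 40 passed and 1 had an unadjusted p under 0.05, against 4.23% of all genes; this became 12 without IgG 1, 3 without anti-VSIG4 3, 1 without IgG 2 and 0 without each of the others. Between cDC2 and monocyte/macrophages 0 of 40 passed, where 0.00906% of genes did, and 3 had an unadjusted p under 0.05, against 4.19% of all genes. The 3 became 13 without IgG 1 and 1 to 4 without each of the other libraries.

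Other cell cycle genes, from lists of 105, also gave 0 calls by edgeR in each of the 4 classes. In T cells 82 of 100 tested lay below 0, including all 9 origin licensing genes, with a median log2 change of -0.22. These counts include IgG 3. Without that library the members above 0 in T cells went from 3 to 19 of 40, and no such count is given for this list. The retinoblastoma gene Rb1, a brake on E2F, was 24.2, 26.2 and 22.1 CPM under IgG and 15.6, 12.7 and 18.6 CPM under anti-VSIG4 (-0.62 ± 0.22), and E2f1 overlapped (-0.60 ± 0.24), as did G1 cyclins and kinases as a list, with 4 of 8 above 0. In cDC2 40 of 58 lay above 0; Cks1b, a cyclin-dependent kinase subunit, was 40.8, 28.7 and 29.7 CPM under IgG and 64.3, 93.3 and 60.0 CPM under anti-VSIG4 (1.12 ± 0.26, edgeR adjusted p = 0.999). Dut, which keeps uracil out of DNA, was 26.6, 36.2 and 47.8 CPM and 63.1, 69.9 and 72.1 CPM (0.92 ± 0.25).

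In monocyte/macrophages 77 of 103 other cell cycle genes lay above 0, and Dut was 22.02, 23.5 and 20.1 CPM under IgG and 31.4, 34.4 and 28.6 CPM under anti-VSIG4 (0.50 ± 0.15), without overlap. The CDK inhibitors were balanced there, with 4 of 7 above 0. In tumour/epithelial cells 56 of 101 lay above 0; Ect2, a factor of cytokinesis, was 12.9, 11.8 and 12.3 CPM under IgG and 9.41, 8.10 and 5.20 CPM under anti-VSIG4 (-0.67 ± 0.26), without overlap, and Cks2 lay above 0 without overlap (0.37 ± 0.18).

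In fibroblasts, which build the tumour matrix, 29 of 39 members lay above 0 and none passed (0% of 9604 genes). Mitosis members made up most of these, with 20 of 23 above 0 against 6 of 13 S-phase members. Ccna2, Ccnb2, Cdca3 and Bub1b were higher without overlap, 4 of 39 against 5.76% of all genes; Ccna2 was 14.0, 8.63 and 3.75 CPM under IgG and 22.6, 15.2 and 22.2 CPM under anti-VSIG4 (1.12 ± 0.45, edgeR adjusted p = 0.765). The anti-VSIG4 3 library held 54 fibroblasts and had the highest mitosis sum of the class (1196.5 CPM). In neutrophils 26 of 30 members lay above 0 and none passed (0.00923% of 10830 genes). Pclaf, Ube2c, Bub1b and Stmn1 were higher without overlap, 4 of 30 against 2.72% of all genes, and Aurka was lower, 1 of 30 against 9.24%. Stmn1 in neutrophils was 9.40, 8.15 and 8.72 CPM under IgG and 18.1, 16.8 and 12.1 CPM under anti-VSIG4 (0.95 ± 0.25, edgeR adjusted p = 0.779). A small cluster of 46 neutrophils with the granule genes Camp, Ngp and Ltf held all 6 strict neutrophils, and 30 of its cells came from anti-VSIG4 3; its part in these values was not tested.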

How the data were processed

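Whole tumours were made into single-cell libraries on the DNBelab C platform and sequenced on a DNBSEQ-T7, per the labels. The authors deposited raw UMI counts per gene and cell, 1 matrix per mouse; STAR and Seurat 4.11 are named in the submitters' processing notes, and no source used here gives the genome build or annotation. The 40 members and the other lists were chosen with earlier results of these data known.

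Of 47794 barcodes, 47603 were kept, each with 500 or more UMIs from 300 or more genes and no more than 20% of UMIs mitochondrial. Barcode names are serial numbers, so barcodes shared between libraries could not be counted. Cells were clustered (scanpy 1.11.5, leidenalg 0.10.2, Python 3.11.15) without cell cycle genes and named from markers. Some choices were made after seeing the data: calling clusters nucleus-like by their share of UMIs from genes over 100 kb, leaving 1 further cluster unnamed, and removing genes that correlated with the cycle (r above 0.2) before sub-clustering. Scrublet called 0 cells and so did not work; the 6% with the highest scores were removed as an alternative.

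UMIs were summed per library and class (at least 20 cells) and tested with edgeR 4.0.16 (R 4.3.3; filterByExpr, TMM, quasi-likelihood, Benjamini-Hochberg adjustment over all genes tested, threshold 0.05), with DESeq2 1.42.0 as an alternative. Scripts were tested on simulated data. For shares of cells, each cell was thinned to 1000 UMIs. Values in every library are given for Mki67, Top2a and the 3 S-phase and 3 mitosis members with the smallest p in each class, and for classes compared, the 3 largest changes per direction that passed; other members named were chosen after their values were seen. Other settings tried were size factors, low-count filter, library kind (over or under 1% nucleus-like cells), replicate numbers, clustering with cell cycle genes, and each library left out.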

Additional observations from a re-analysis of the deposited data

How the results depend on the processing

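No member passed for treatment in T cells, tumour/epithelial cells or monocyte/macrophages under any alternative run, nor with any library left out (0 to 0 in all 4 classes). In cDC2 1 member passed with no filter on low counts (Pclaf) and 3 passed in the libraries with over 1% nucleus-like cells alone, where the lone anti-VSIG4 library is assumed to vary like the others; the cause was not tested. Over all genes, edgeR called 0 in each class, against 104, 82, 59 and 15 with no filter (monocyte/macrophages, T cells, tumour/epithelial cells, cDC2), 346, 21, 52 and 18 in the libraries with over 1% nucleus-like cells, 70, 24, 6 and 2 in the others, 4 in monocyte/macrophages with library kind as a covariate, 1 in T cells without the top doublet scores, and 23, 4, 7 and 1 by DESeq2. With the replicate block, 0 members passed in each class, and 2, 15, 3 and 9 genes; same-numbered libraries did not all deviate together (r from -0.23 to 0.39), and nothing in the labels pairs them.

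Of 465 log2 changes of named members under alternatives, 454 kept direction and side of the threshold, 8 reversed and 3 came to pass. In monocyte/macrophages, the libraries with over 1% nucleus-like cells gave -0.10 for Mki67 and -0.087 for Top2a; with a library left out Mki67 ranged from -0.060 (without IgG 1; -0.043 without anti-VSIG4 2) to 0.48 and Top2a from -0.072 (without anti-VSIG4 2) to 0.30. Tyms in tumour/epithelial cells was -0.38 in the libraries with over 1% nucleus-like cells and ranged from -0.0020 (without anti-VSIG4 1) to 0.51. Top2a in cDC2 was -0.021 in the libraries with under 1%. The cause was not tested.

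The difference in the share of cells with a Mki67 or Top2a UMI (anti-VSIG4 minus IgG) was -1.01 points in tumour/epithelial cells (-1.63 to -0.26 with a library left out), -2.45 at 2000 UMIs and -8.01 without thinning. In cDC2 it was -2.37 (-3.74 to -1.60), 1.24 at 2000 UMIs, 5.40 without thinning and 0.27 with 3 further UMIs, a rule added after seeing the data. In T cells it ranged from -2.60 to -0.54 and in monocyte/macrophages from 0.30 to 1.02 with a library left out. Between classes, 20 to 27 (T cells against tumour/epithelial cells), 24 to 32 (cDC2 against monocyte/macrophages) and 38 to 39 (T cells against monocyte/macrophages) members passed with a library left out, and 21, 27 and 39 with no replicate block, where Cdc20 no longer passed (-0.59, edgeR adjusted p = 0.067). With 3 mice a group and few cDC2, small changes were not detectable.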

Other observations

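In regulatory T-like cells Mki67 was 128, 119 and 118 CPM in the 3 IgG libraries, from 60, 15 and 14 UMIs, and 63.4, 51.1 and 55.1 CPM in the 3 anti-VSIG4 libraries, from 48, 25 and 12 UMIs. The groups did not overlap. This sub-cluster and gene were chosen after their values were seen, and the difference was not tested. Mki67 is a single gene, and its values do not show that cycling as a whole fell in these cells. Among nucleus-like cells 5 of 32 members tested lay above 0 for anti-VSIG4 against IgG, with a median log2 change of -0.53, and most of these cells came from IgG 3.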
